A study of Mus musculus with 8 samples.

Results

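The clustered protocadherins are 58 genes that lie in 3 neighboring clusters (alpha, beta and gamma) on mouse chromosome 18. For each gene, DNA methylation was read over the exon that holds the start codon of its main transcript in GENCODE M21 and over the 1000 bp upstream of that exon. Cytosines of CpG sites with 10 or more reads in all 8 libraries were kept, which left 37 of the 58 genes and 307 of the 567907 cytosines kept across the genome. All protein-coding genes were treated in the same way, and 9803 of 21952 had at least 1 such cytosine.

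The libraries came from tumors of NIC-5231, a mouse mammary tumor cell line derived from ErbB2-driven tumors. The tumors grew in the mammary fat pads of immunodeficient NSG mice that were 5 to 7 weeks of age at injection. Treatment began once tumors could be felt, with 5 mice in each group and an intraperitoneal dose every 2 days. The groups were vehicle (labeled DMSO), C29, 5-azadC and C29+5-azadC, called the combination. A dose of C29 was 10 mg/kg, while 1 mg/kg was given of 5-azadC, alone or combined. C29 inhibits the nuclear receptor ERRα. The drug 5-azadC, or decitabine, enters DNA in place of a cytidine and traps DNA methyltransferases there. Each group was read in 2 libraries, each from the pooled DNA of 2 mice, by reduced representation bisulfite sequencing (RRBS), which sequences fragments from CpG-rich DNA after bisulfite has converted the unmethylated cytosines. All tumors grew from 1 cell line, and DNA of host cells within a tumor cannot be told apart from tumor DNA, so a level is an average over all cells and alleles of a pool. Whether the 2 pools of a group held different mice is not given in the sources used here, so the q-values of tests over libraries measure only the spread between these libraries, which may be technical.

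Clustered protocadherins are cell surface adhesion proteins, best known from neurons, where each cell uses its own small set of them to tell itself from its neighbors. In the alpha and gamma clusters a large first exon with its own promoter is spliced to exons shared by the whole cluster, while a beta gene codes its protein in a single exon. Most members are alternate genes that are picked at random in a neuron, and methylation of their promoters and first exons goes with silence. The C-type genes at the end of the alpha and gamma clusters (Pcdhac1, Pcdhac2, Pcdhgc3, Pcdhgc4 and Pcdhgc5) are used in a less random way. No expression was measured in these libraries.

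The first coding exons of the alpha genes spanned chr18:36930285-37146530, those of the beta genes chr18:37264938-37524479 and those of the gamma genes chr18:37661793-37822134 (GRCm38). They were long, with a median of 2611 bases, against 255 bases for the other coding genes. The exons held a median of 4.68 CpG sites per 100 bases in the alpha cluster, 3.92 in the gamma cluster and 2.07 in the beta cluster, against 3.31 in the other coding genes. Over the measured genes alone the medians were 3.41 for members and 8.16 for the others. Upstream of the exon the median was 1.05 per 100 bases over all members and 1.50 over the other coding genes. Every one of the 307 cytosines had a CCGG, a site at which RRBS enzymes cut, within 100 bases. The exon held 280 of the 307 cytosines and the upstream stretch 27, so the values below describe first coding exons more than promoters.

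Coverage was uneven between the clusters. In the gamma cluster 20 of 22 genes were measured, with 203 cytosines, and only Pcdhga2 and Pcdhga6 had none. In the alpha cluster 7 of 14 genes were measured, with 51 cytosines, and Pcdha1, Pcdha2, Pcdha6, Pcdha7, Pcdha9, Pcdha10 and Pcdha11 had none. In the beta cluster 10 of 22 genes were measured, with 53 cytosines, and Pcdhb4, Pcdhb6, Pcdhb7, Pcdhb8, Pcdhb9, Pcdhb11, Pcdhb12, Pcdhb14, Pcdhb19, Pcdhb20, Pcdhb21 and Pcdhb22 had none. At least 5 cytosines were kept for 25 genes. The median cytosine of the members had between 37 reads, in C29+5-azadC replicate 2, and 59 reads, in vehicle replicate 2 and 5-azadC replicate 2. Pooled over a gene, 77 to 2420 reads per library were counted for the 25 genes and 26 to 606 for the other 12, and the 95% Wilson interval of a level had a median half-width of 3.41 and 6.13 percentage points, respectively. These intervals cover counting error only, since copies of 1 molecule were not marked.

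Most members were highly methylated. In vehicle-treated tumors (the mean of both libraries), 29 of 37 members (78.4%) were at 50% or more and 14 (37.8%) at 80% or more, and 3 were at 20% or less. Of the 9766 other coding regions, 17.4% were at 50% or more and 72.2% at 20% or less. The median member stood at 71.6%, and the median other coding region at 0.92%.

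The gamma cluster was the most methylated. With all reads of a cluster pooled, its level was 73.5% and 72.0% in vehicle, 74.8% and 67.6% with C29, 72.2% and 71.5% with 5-azadC, and 76.7% and 69.7% under the combination. The alpha cluster gave 64.4% and 65.5% in vehicle, 49.9% and 62.5% with C29, 59.3% and 61.6% with 5-azadC, and 66.0% and 68.6% under the combination. The beta cluster gave 55.9% and 59.3% in vehicle, 60.2% and 62.0% with C29, 57.1% and 50.2% with 5-azadC, and 47.8% and 56.6% under the combination. The gamma cluster was above the alpha and the beta cluster in all 8 libraries, and the alpha cluster was above the beta cluster in 7 of 8. The pooled reads of all members came to between 65.8% and 69.6% in the 8 libraries, while those of all other coding regions came to between 9.07% and 11.1%.

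**Figure D1:**
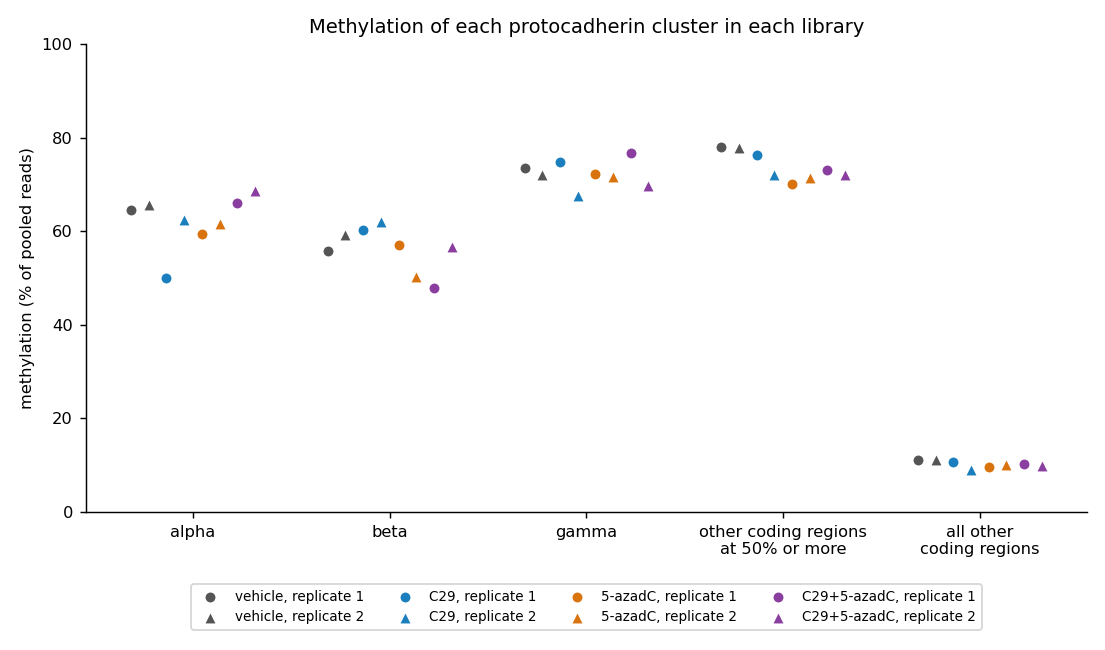
Percent methylation (reads pooled over cytosines) of the alpha, beta and gamma clusters, of other coding regions with a mean of 50% or more over the 8 libraries, and of all other coding regions; each point is 1 library, colored by group. The gamma cluster lies above the alpha and beta clusters in all 8 libraries, and the libraries with and without each drug overlap in each cluster.

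Within the clusters, the alternate genes of the gamma cluster were high. All 10 measured Pcdhga genes and all 7 measured Pcdhgb genes among them were at 50% or more in vehicle, with medians of 83.7% and 81.7%. Pcdhga7 was the most methylated member with 5 or more cytosines, at 92.0% and 94.3% in vehicle, 93.1% and 96.0% with C29, 86.3% and 96.2% with 5-azadC, and 92.2% and 94.5% under the combination. The libraries of the 4 groups overlapped. The 5 measured alternate alpha genes had a median of 71.9% and ranged from 50.6% (Pcdha8, 2 cytosines) to 91.2% (Pcdha4, 5 cytosines).

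Beta genes were lower and more scattered, from 13.5% (Pcdhb3, 2 cytosines) to 82.2% (Pcdhb17, 8 cytosines), with a median of 50.7%. Pcdhb17 was read at 73.0% and 91.4% in vehicle, 78.0% and 86.3% with C29, 86.9% and 66.9% with 5-azadC, and 86.4% and 92.2% under the combination. Pcdhb2, the lowest beta gene with 5 or more cytosines, was read at 52.7% and 50% in vehicle, 35.5% and 73.2% with C29, 60.5% and 43.6% with 5-azadC, and 46.6% and 49.8% under the combination. In both genes the 2 libraries of a treated group could differ by more than the groups did.

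**Figure D2:**
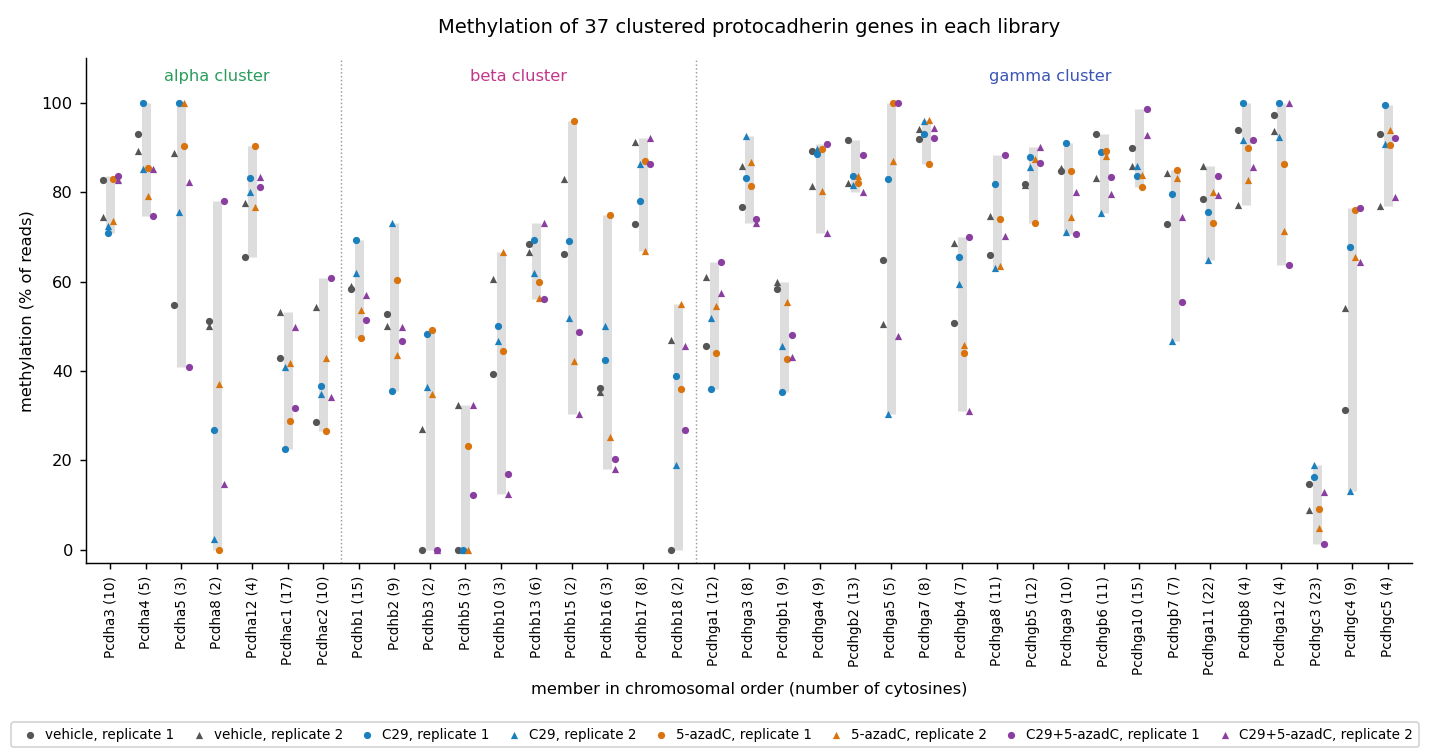
Percent methylation (reads pooled over the cytosines of a gene) of the 37 measured members in chromosomal order, with the number of cytosines in parentheses; each point is 1 library, circles are replicate 1 and triangles replicate 2, and the gray bar spans the 8 libraries. Most gamma genes stay above 50% in all libraries, and Pcdhgc3 stays below 20% in all of them.

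Libraries of the same group often disagreed at single genes. The absolute difference between the 2 libraries of a group had a median over the 37 members of 9.67 points in vehicle, 8.70 with C29, 10.5 with 5-azadC and 9.43 under the combination. Over the 1554 other coding regions with a mean of 50% or more in the 8 libraries, the same medians were 7.64, 8.15, 10.7 and 11.1 points. For the 12 members with under 5 cytosines the 2 libraries could lie far apart, as in Pcdha5, at 54.8% and 88.9% in vehicle. Among cytosines of the members with a mean between 20% and 80%, 26.5% of the values in single libraries were exactly 0% or 100%. Of the 23 CpG sites read on both strands, the strands of a site differed by a mean of 23.0 points.

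Pcdhgc3, which codes for a gamma C-type protein found in many tissues, was nearly unmethylated at its exon start in all 8 libraries. Its 17 cytosines between 82 bases upstream and 154 bases into the exon (the first base of the exon is counted as 0) had no methylated read in either vehicle library, either 5-azadC library or C29+5-azadC replicate 2. With 0 of 618 and 0 of 825 reads, the vehicle libraries allow a level of up to 0.485% and 0.364%, for counting error only. The highest level there was 1.93%, in C29+5-azadC replicate 1. Further into the same exon, 6 cytosines at 1040 to 1317 bases were read at 51.0% and 30.0% in vehicle, 41.3% and 57.4% with C29, 46.7% and 32.7% with 5-azadC, and 0% and 46.8% under the combination. Taken over all 23 cytosines, Pcdhgc3 was the least methylated member, with 14.8% and 8.94% in vehicle, 16.3% and 18.9% with C29, 9.21% and 4.80% with 5-azadC, and 1.29% and 13.0% under the combination.

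The alpha C-type genes were at intermediate levels in most libraries. Pcdhac1, with 17 cytosines between 120 bases upstream and 112 bases into the exon, was read at 42.9% and 53.2% in vehicle, 22.5% and 40.8% with C29, 28.8% and 41.8% with 5-azadC, and 31.8% and 49.8% under the combination. Both vehicle libraries were above both C29 libraries and both 5-azadC libraries, and replicate 2 of the combination lay between the vehicle libraries. Pcdhac2, with 10 cytosines, was read at 28.6% and 54.4% in vehicle, 36.7% and 34.9% with C29, 26.6% and 42.9% with 5-azadC, and 60.9% and 34.1% under the combination. The vehicle libraries of Pcdhac2 span both C29 libraries, and the combination gave both the highest level and one inside that span. None of these cytosines lies nearer to the exon start than 301 bases. The 4 at 301 to 337 bases were at 12.2% and 46.2% in vehicle, below the 6 at 1250 to 1370 bases (44.8% and 58.6%), and at 69.4% and 75% under the combination, above them (55.6% and 24.7%).

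Pcdhgc4 was the member whose libraries differed most among the C-type genes. It was read at 31.3% and 54.1% in vehicle, 67.9% and 13.2% with C29, 76.1% and 65.4% with 5-azadC, and 76.5% and 64.4% under the combination. The 4 libraries with 5-azadC lay between 64.4% and 76.5%, and C29 replicate 1 fell within that range. All 9 cytosines lie between 338 and 473 bases into the exon, and the 6 at 338 to 363 bases took values within 1 point of each other in 6 of the 8 libraries. They were all at 23.8% in vehicle replicate 1, at 46.9% in vehicle replicate 2 and at 100% in 4 libraries. How many separate DNA molecules lie behind such runs was not tested.

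Pcdhgc5 was in the range of the alternate gamma genes over its 4 cytosines at 2009 to 2056 bases, with levels of 93.2% and 77.0% in vehicle, 99.7% and 90.9% with C29, 90.7% and 93.9% with 5-azadC, and 92.2% and 78.9% under the combination. Its start was not covered, so it cannot be set beside those of Pcdhac1 and Pcdhgc3.

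Pcdhb1, the first gene of the beta cluster, was more methylated further into its exon. Its 7 cytosines at 285 to 412 bases were between 18.2% and 40.2% in the 8 libraries, the 3 at 953 to 969 bases between 66.0% and 85.9%, and the 5 at 1083 to 1255 bases between 54.5% and 78.0%. The start was below the rest of the exon in every library.

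**Figure D3:**
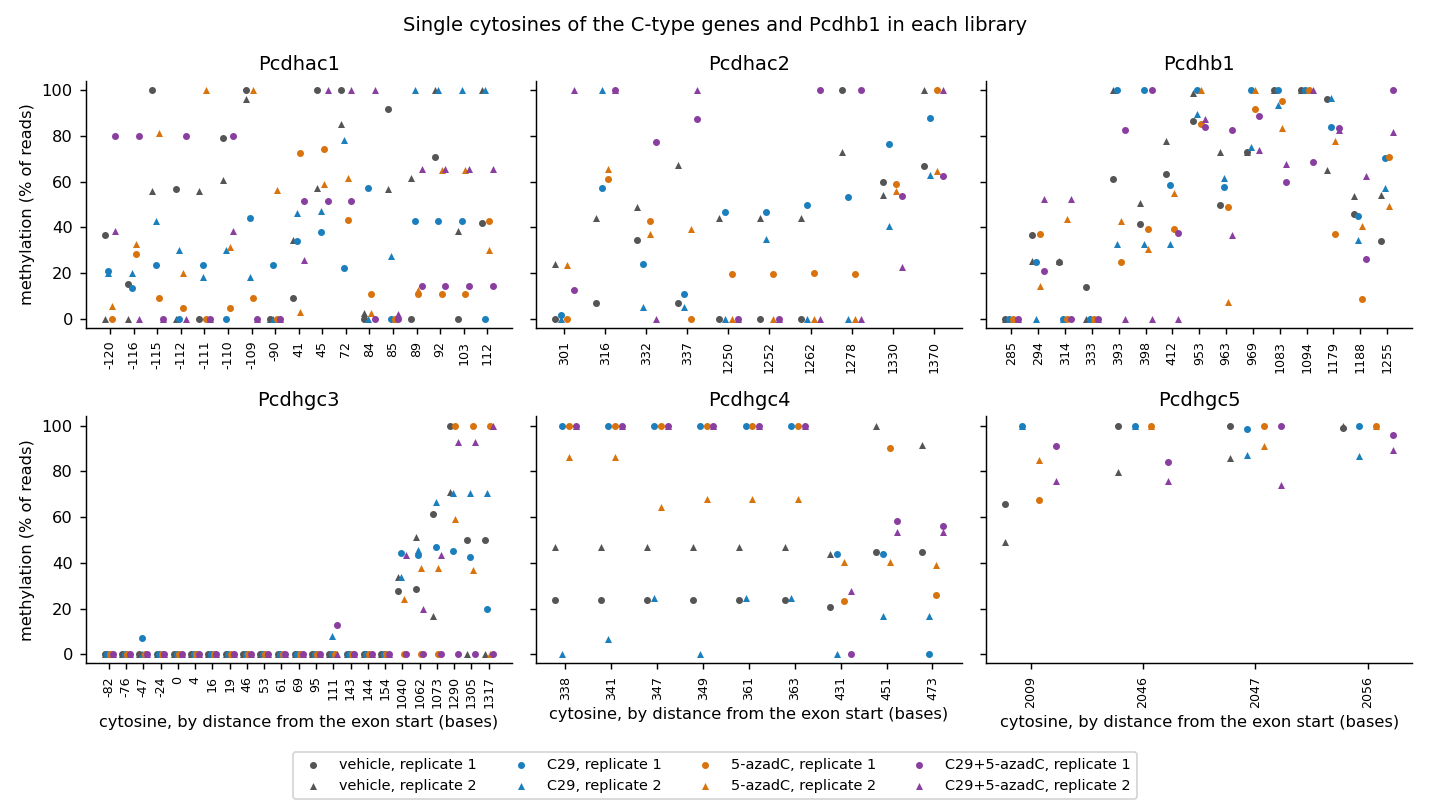
Percent methylation of single cytosines (vertical axis) of the C-type genes and Pcdhb1, ordered along the horizontal axis and labeled by their distance in bases from the exon start; each point is 1 library. The 17 cytosines around the start of Pcdhgc3 lie at or near 0% while its 6 cytosines from 1040 bases on range up to 100%, and the cytosines of Pcdhgc4 take the same value in runs.

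Methylation was lower around the exon start than further into the exon. In vehicle, the median cytosine of the members was at 46.7% upstream (27 cytosines), 49.5% in the first 500 bases (95), 84.1% at 500 to under 1000 bases (47) and 87.6% from 1000 bases on (138). Cytosines of other coding genes had medians of 0% in the first 3 of these stretches and 23.6% from 1000 bases on. In the gamma cluster the medians were 58.2% in the first 500 bases and 92.1% from 1000 bases on. Without Pcdhgc3, the gamma median in the first 500 bases was 72.4%.

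The same direction was seen within most genes that had cytosines on both sides of base 500. Of 14 such genes, 12 were less methylated before base 500 (upstream included) than after it in vehicle, with a median difference of -23.7 points over the 14. In 6 of them (Pcdhb1, Pcdhb2, Pcdhga1, Pcdhgb5, Pcdhgb7 and Pcdhga11) this held in all 8 libraries. The widest gap was in Pcdhb2, at 4.5% before and 74.5% after base 500 in vehicle. Pcdhga8 was the exception in all 8 libraries, with 3 cytosines before base 500 at 100% in vehicle and 66.6% over the 8 after it. Pcdhgb1, with 1 cytosine before base 500, was the other gene that was higher there in vehicle.

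**Figure D4:**
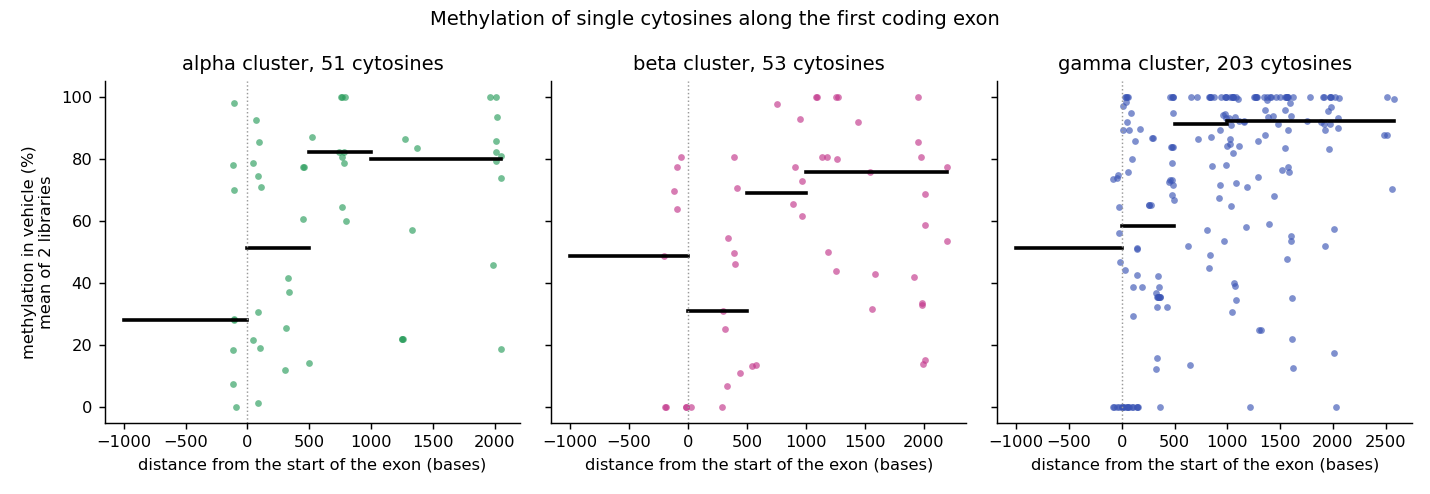
Percent methylation in vehicle (mean of 2 libraries) of each cytosine against its distance in bases from the start of the first coding exon, for the alpha, beta and gamma clusters; black lines are medians over the upstream stretch, the first 500 bases, 500 to under 1000 bases and 1000 bases on. In all 3 clusters the medians from 500 bases on lie above those before it, and a row of gamma cytosines at 0% stands around the start.

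Pooled over each cluster, the libraries with and without 5-azadC overlapped, and the beta cluster was lower by more than 1 SD between libraries (4.20 points, pooled over the groups). The mean of the 4 libraries with 5-azadC (alone or with C29) minus the mean of the 4 without was -0.05 points over all members, 3.27 in the alpha cluster, -6.41 in the beta cluster and 0.57 in the gamma cluster. The SD was 4.63 points in the alpha and 3.60 in the gamma cluster. The alpha value was -0.28 without C29 replicate 1, and the sign of the gamma value turned without C29 replicate 2 (-0.88) or C29+5-azadC replicate 1 (-0.82). With equal weight for cytosines in place of reads, the differences were -1.89 points in the alpha, -4.44 in the beta and 0.79 in the gamma cluster. Pooled over other coding regions with a mean of 50% or more in the 8 libraries, a comparison added after the data were seen, the same difference was -4.29 points.

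Gene by gene, 23 of 37 members (62.2%) were lower and 14 higher with 5-azadC, and the median difference was -1.42 points. Of all coding regions 53.6% were lower. Among the 27 members with a mean of 50% or more, 16 (59.3%) were lower, with a median of -1.27 points and an interquartile range of -5.40 to 2.82. Among the 1554 other coding regions at that level, 1181 (76.0%) were lower, with a median of -5.93 points and an interquartile range of -12.6 to -0.41. The members were not tested as a set against these regions.

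**Figure D5:**
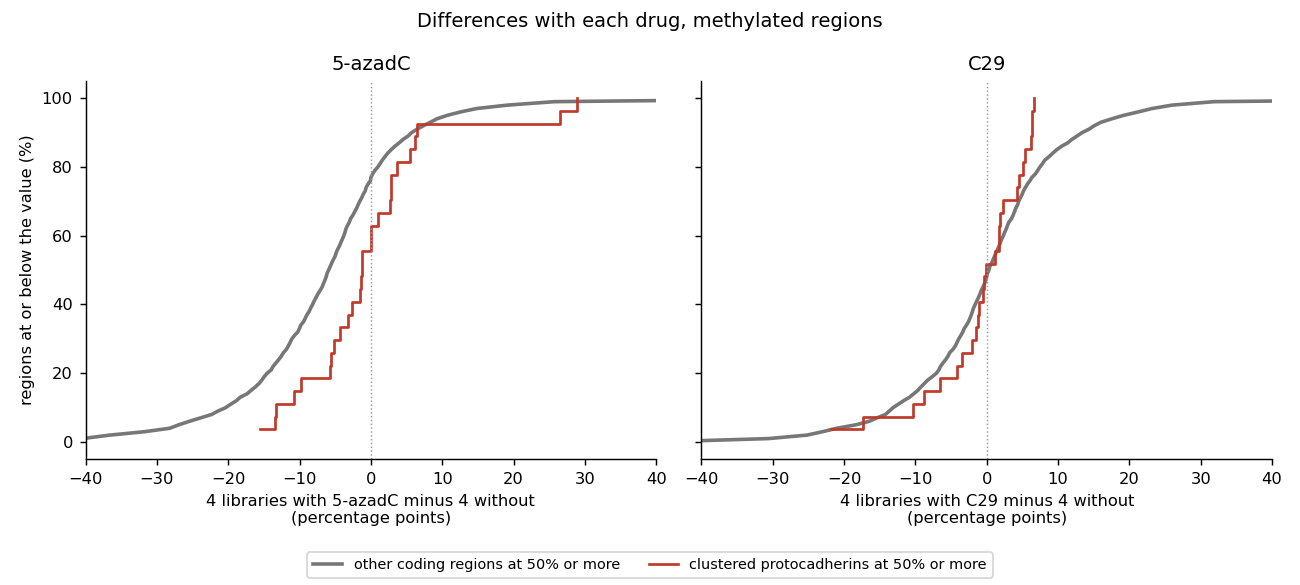
Cumulative share of regions (vertical axis, percent) by the difference between the mean of the 4 libraries with a drug and the mean of the 4 without (horizontal axis, percentage points), for members and for other coding regions with a mean of 50% or more in the 8 libraries. For 5-azadC the members' median is -1.27 points and that of the other regions -5.93 points, and for C29 the medians are -0.07 and 0.31 points.

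No single member passed the test that takes the spread between libraries into account. In an overdispersion-corrected F test with terms for 5-azadC and C29 over all 9803 coding regions, 0 regions (0%) had a q below 0.05 for either drug. Unadjusted p values under 0.05 were found for 5-azadC in 1361 regions (13.9%) and for C29 in 1172 regions (12.0%). Among the 37 members, Pcdhb1 alone (2.70%) was such a region for 5-azadC (q = 0.304 in the F test) and 0 were for C29. With limma on percent methylation, 0 regions passed for either drug, and the members with an unadjusted p under 0.05 for 5-azadC were Pcdha4 and Pcdhb1 (527 regions in all).

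Pcdhb1 was the single member whose 4 libraries with 5-azadC were all below the 4 without, as were 2.52% of all coding regions and 8.86% of those with a mean of 50% or more. It was read at 58.3% and 59.1% in vehicle, 69.3% and 62.0% with C29, 47.4% and 53.7% with 5-azadC, and 51.4% and 57.1% under the combination, a difference of -9.77 points. The gap between the sides, from 57.1% to 58.3%, was narrow, and the libraries overlapped when each cytosine was given the same weight. Leaving out 1 library raised the count of such members to 2 (without C29 replicate 2 or C29+5-azadC replicate 1). It was 3 without vehicle replicate 2, 5-azadC replicate 1 or C29+5-azadC replicate 2. Pcdhb1 was among them each time, and the share of all coding regions was not counted there.

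The other large decreases among members with 5 or more cytosines had overlapping libraries. Pcdhgb4 was read at 50.8% and 68.7% in vehicle, 65.5% and 59.5% with C29, 44.0% and 45.8% with 5-azadC, and 70.1% and 31.0% under the combination (difference -13.4 points, q = 0.532 in the F test). Pcdha4 was read at 93.0% and 89.3% in vehicle, 100% and 85.1% with C29, 85.4% and 79.2% with 5-azadC, and 74.6% and 85.2% under the combination (-10.8 points, q = 0.396). In Pcdha4, C29 replicate 2 was the lowest library without 5-azadC, and the 5-azadC replicate 1 and C29+5-azadC replicate 2 libraries stood just above it. Pcdhga3 differed by -5.79 points and Pcdhgc3 by -7.65 points, with overlapping libraries in each.

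Among members with 5 or more cytosines, the increases included larger differences than the decreases. Pcdhgc4, given above, was 28.96 points higher with 5-azadC (q = 0.404 in the F test), and Pcdhga5 was 26.5 points higher (q = 0.564). Pcdhga5, with 5 cytosines, was read at 64.8% and 50.4% in vehicle, 83.1% and 30.3% with C29, 100% and 87.0% with 5-azadC, and 100% and 47.8% under the combination. The groups overlapped, since C29+5-azadC replicate 2 was below both vehicle libraries and C29 replicate 1 was above it. Pcdhga1 followed and was 6.42 points higher, at 45.7% and 61.1% in vehicle, 36.0% and 51.9% with C29, 44.0% and 54.5% with 5-azadC, and 64.4% and 57.5% under the combination.

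The test of reads alone was a logistic likelihood-ratio test of 5-azadC against vehicle, called at q below 0.01 and 25 points or more. In it 1 of 37 members was called, against 3.43% of all coding regions. It was 1 of the 27 members with a mean of 50% or more, against 13% of all coding regions at that level. That member was Pcdhga5, at 36.8 points above vehicle in pooled reads (q = 3.36e-28). It was called without any 1 library too, at 28.2 to 45.2 points. The number of members called rose when some libraries were left out, and the share of all coding regions called was then not counted. This test counts each read as independent and does not see the spread between the 2 libraries of a group, and with the overdispersion correction 0 members were called.

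For C29, the differences pooled over a cluster were each under 1 SD between libraries. The 4 libraries with C29 minus the 4 without gave -0.98 points in the alpha cluster, 1.04 in the beta cluster and -0.10 in the gamma cluster, with overlapping libraries in each. Their signs depended on single libraries, with ranges over the 8 fits that each left out 1 library of -3.27 to 2.96, -0.77 to 3.99 and -1.60 to 1.44. The alpha cluster's lowest pooled library was C29 replicate 1, at 49.9%, while C29 replicate 2 stood at 62.5%. Pooling weighs each gene by its reads. In C29 replicate 1 the less methylated Pcdhac1 and Pcdhac2 had 920 and 752 reads, more than any other alpha gene. With equal weight for cytosines the alpha difference was 0.40 points, and how far the mix of reads set the pooled levels was not tested. Of the 37 members 22 (59.5%) were lower and 15 higher, with a median of -1.04 points, and 47.9% of all coding regions were lower. Among the 27 members with a mean of 50% or more, 14 (51.9%) were lower, with a median of -0.07 points. Of the 1554 other coding regions at that level 48.0% were lower. In 0 members were all 4 libraries with C29 below the other 4, against 0.989% of all coding regions. Pcdhgb7 met this without vehicle replicate 1 and Pcdhgb1 without 5-azadC replicate 1, where the share of all coding regions was not counted.

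The largest decrease with C29 among members with 5 or more cytosines was in Pcdhgb7, at -17.4 points (q = 0.535 in the F test). It was read at 73.0% and 84.4% in vehicle, 79.6% and 46.6% with C29, 85.0% and 83.3% with 5-azadC, and 55.6% and 74.5% under the combination. Pcdhgb1 followed at -11.1 points (q = 0.440), at 58.3% and 60.1% in vehicle, 35.4% and 45.7% with C29, 42.7% and 55.5% with 5-azadC, and 48.1% and 43.2% under the combination. In Pcdhgb1 the only library without C29 inside the range of the C29 libraries was 5-azadC replicate 1. Pcdhga5 was next, at -10.3 points. The largest increases were 6.56 points in Pcdhgb5, 6.36 in Pcdhga8 and 6.18 in Pcdhb17, and their libraries overlapped.

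With C29 alone against vehicle, 2 of 37 members were called in the test of reads, against 2.81% of all coding regions. Among the 27 members with a mean of 50% or more, 0 were called, against 8.6% of all coding regions at that level. The 2 called members had 2 cytosines each. Pcdha8 was 32.3 points lower in pooled reads (q = 5.11e-07), at 51.2% and 50% in vehicle and 26.8% and 2.38% with C29, but it ranged from 0% to 78.1% in the libraries with 5-azadC. Pcdhb3 was 26.1 points higher (q = 9.63e-07), at 0% and 27.0% in vehicle and 48.3% and 36.5% with C29. Pcdha8 was no longer called without C29 replicate 2 (-24.0 points), nor Pcdhb3 without vehicle replicate 1 (14.8 points) or C29 replicate 1 (20.8 points). With a minimum of 5 reads Pcdhb3 was 9.82 points higher (q = 0.0240 in the logistic test) and was not called. The number of members called rose whichever 1 of the 4 libraries was left out. The share of all coding regions called was then not counted. Neither Pcdha8 nor Pcdhb3 was called with the overdispersion correction.

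Under the combination against vehicle, 3 of 37 members were called in the test of reads, against 3.31% of all coding regions. Among the 27 members with a mean of 50% or more, 2 were called, against 11.8% of all coding regions at that level. Pcdhb10, with 3 cytosines, was 32.0 points lower (q = 4.14e-16), at 17.0% and 12.5% under the combination and between 39.4% and 66.7% in the other 6 libraries. Both libraries of the combination lay below all others, and the share of all coding regions with that order was not counted. With both strands of a CpG summed before the read minimum, Pcdhb10 was at -20.5 points and was not called, and Pcdhgc4 was called in its place. Pcdhb15, with 2 cytosines, was 34.0 points lower (q = 4.39e-10), at 48.8% and 30.3% under the combination, 66.3% and 83.0% in vehicle, 69.2% and 52.0% with C29, and 96.0% and 42.3% with 5-azadC. Pcdhga5 was 28.2 points higher (q = 2.23e-22), a value that C29+5-azadC replicate 1 carried, and without that library the difference was -11.0 points, that is, lower than vehicle. Without vehicle replicate 2 the differences were -23.5 points in Pcdhb10, -22.6 in Pcdhb15 and 22.2 in Pcdhga5, all under 25 points. The number of members called rose without some libraries, vehicle replicate 1 and C29+5-azadC replicate 2 among them, and fell without vehicle replicate 2. The share of all coding regions called was then not counted. With the overdispersion correction 0 of the 3 were called.

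Among members with 5 or more cytosines, the largest decreases under the combination were 15.1 points in Pcdhgb4 (value -15.1), 13.5 in Pcdhgb1 (-13.5) and 13.0 in Pcdhgb7 (-13.0). The largest increases after Pcdhga5 were 24.5 points in Pcdhgc4 and 10.2 in Pcdhb17. These pooled differences fell short of 25 points.

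Whether the effect of C29 differed with and without 5-azadC was tested by an interaction term in the F test, and 0 of 9803 regions passed (q = 1 for every member). Unadjusted p values under 0.05 in this F test were found in 433 regions (4.42%). The members among them were Pcdhb3 and Pcdhga10, 2 of 37 (5.41%), a share near that of all coding regions. Pcdhb3, with 2 cytosines, was read at 0% and 27.0% in vehicle, 48.3% and 36.5% with C29, 49.2% and 34.9% with 5-azadC, and 0% and 0% under the combination. Pcdhga10, with 15 cytosines, was read at 89.9% and 85.8% in vehicle, 83.6% and 85.9% with C29, 81.2% and 84.0% with 5-azadC, and 98.6% and 92.9% under the combination.

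Single cytosines of the clusters were called in both directions, and with 5-azadC the higher calls slightly outnumbered the lower ones. With 5-azadC, 51 of 307 cytosines (16.6%) were called, against 13.1% of all cytosines, and 24 of these were lower and 27 higher. Lower calls made up 10% of all cytosines, and 76.2% of all calls with 5-azadC. In the gamma cluster 9 calls were lower and 17 higher, and in the alpha cluster 10 were lower and 6 higher. Neighboring cytosines were counted singly though some took the same values in runs, as in Pcdhgc4, so their calls are not independent. The number of genes behind the calls in each direction is not given here. With C29, 59 cytosines (19.2%) were called, 42 lower and 17 higher, against 10.7% of all cytosines and 5.93% for lower calls. Under the combination, 71 (23.1%) were called, 38 lower and 33 higher, against 13.5% of all cytosines and 9.51% for lower calls. Leaving out 1 library changed these counts, and the share of all cytosines called was then not counted. The share of called cytosines was not compared at equal methylation, and cytosines near 0%, most of those of other coding genes, have no room to fall.

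At 3 of 307 cytosines all 4 libraries with 5-azadC were below the 4 without, against 1.52% of all cytosines. At 2 they were all above, for which the share of all cytosines is not given here. The 3 lie in Pcdhga1 (1044 bases into the exon), Pcdhga4 (832 bases) and Pcdhga9 (1052 bases). The cytosine of Pcdhga9 was at 100% in the 4 libraries without 5-azadC, at 85.7% and 75.6% with 5-azadC, and at 44.1% and 77.6% under the combination. The cytosine of Pcdhga4 was between 84.8% and 100% without 5-azadC and between 56.5% and 71.7% with it.

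Genes that lie beside or between the clusters had low methylation. Of the 16 listed, 9 were measured, and all were at 20% or less in vehicle, as were 71.9% of all coding regions. Hars and Hars2 count as separate genes here but had the same values over 14 cytosines. Taf7, a subunit of the general transcription factor TFIID, which lies between the beta and gamma clusters, was between 0.04% and 1.90% over its 40 cytosines, and Hdac3, a histone deacetylase, between 1.52% and 4.28% over 26. Diaph1, a formin, was between 0% and 2.48% over 14. The highest of them in vehicle was Rell2, at 16.7%. Tmco6, with 1 cytosine, was the single one called in the test of reads, under the combination, against 3.31% of all coding regions.

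Protocadherins outside the clusters ranged widely in level. Of 12 listed, 10 were measured, with a median of 38.2% in vehicle, 4 at 50% or more and 4 at 20% or less. The low ones were Pcdh18 (1.30%), Pcdh9 (10.6%), Pcdh20 (11.6%) and Pcdh7 (16.3%), and the highest was Pcdh11x (84.5%). Pcdh8 was read at 36.9% and 46.2% in vehicle, 40.2% and 38.6% with C29, 32.8% and 33.5% with 5-azadC, and 36.2% and 32.0% under the combination, so that its 4 libraries with 5-azadC were below the other 4 (-6.87 points). That order of libraries was found in 2.52% of all coding regions. With 5-azadC 7 of 10 were lower (median -1.11 points), as were 53.6% of all coding regions. With C29 10 of 10 were lower (median -4.35 points), as were 47.9% of all coding regions, from -0.50 points in Pcdh18 to -18.0 in Pcdh20. Against vehicle, 10 of 10 were lower under the combination (median -5.17 points), as were 48.9% of all coding regions; this comparison shares its libraries with the other 2. In the F test the lowest q of the 10 was 0.402 for C29 and 0.318 for 5-azadC, and 0 were called against vehicle in any comparison.

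Of 18 genes listed as regulators of protocadherin choice or methylation, or as related genes, 10 were measured. In vehicle 7 of them (70%) were at 20% or less, as were 71.9% of all coding regions. Smchd1, a chromatin protein that silences the clusters, was between 0% and 0.9989% over 62 cytosines, and Dnmt1, the maintenance methyltransferase, between 0% and 1.50% over 11. Celsr3, a cadherin of neurons, was at 22.0% in vehicle, and Smc1a, a cohesin subunit, at 34.0%. Rest, a repressor of neuronal genes, was read at 98.3% and 99.3% in vehicle, 97.2% and 100% with C29, 77.7% and 89.99% with 5-azadC, and 89.5% and 82.1% under the combination, so that its 4 libraries with 5-azadC lay below the other 4. Setdb1, a histone methyltransferase, had its 4 libraries with 5-azadC above the others, from 18.8% to 25% against 7.73% to 13.4%, over 4 cytosines. Over all coding regions, 2.52% had the 4 libraries with 5-azadC below the others, and 52 of 9803 had them above. Of 9 marker genes of other cell types or of epithelium, the epithelial genes Krt18, Epcam and Cdh1 were measured, at 0%, 15.4% and 12.3% in vehicle, and the share of host cells was not tested.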

How the data were processed

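Reduced representation bisulfite sequencing of NIC-5231 tumors gave 8 libraries, 2 in each of 4 groups, each from pooled DNA of 2 mice. Per the labels, the authors' processing used FastQC 0.11.8, Trim Galore 0.4.1, Bismark 0.20.0 and methylKit 1.7.0 with GRCm38 (mm10). The deposited tables hold, for each cytosine and strand, the fraction of methylated reads and the count of reads that cover it, both made by the authors and without further normalization. The restriction enzyme is not given in the sources used here. The libraries held 1773373 to 2195266 cytosines with a median of 21 to 30 reads, and 51359825 to 81299065 reads in all.

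Methylated reads were taken as fraction times reads. Cytosines with 10 or more reads in all 8 libraries were assigned to the first coding exon of each gene (GENCODE M21) and the 1000 bp upstream, and where such regions of members overlapped a cytosine was counted for the gene whose exon held it, otherwise for the downstream gene. GENCODE M21 names 2 genes Pcdha11, and the one that starts first is RefSeq's Pcdha10. Reads were pooled over a region. Each treatment was compared with vehicle by a logistic likelihood-ratio test, which covers counting error only, with Benjamini-Hochberg adjustment over 9803 regions, and called at q below 0.01 and 25 points or more. With 2 libraries a group, an exact permutation test cannot go below p = 0.33. Drug effects over all 8 libraries were tested with an overdispersion-corrected F test (4 libraries against 4, threshold q of 0.05). Wilson intervals are at 95%, and a count of 0 was read as up to 3 reads. Scripts were tested on simulated data. Python 3.11.15 (numpy 2.4.6, pandas 2.3.3, scipy 1.17.1) and R 4.3.3 with limma 3.58.1 were used.

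The members and gene lists were chosen with earlier results of these data known. Genes were named if they had 5 or more cytosines and were the lowest or highest of a cluster in vehicle or among the 5 largest decreases or 3 largest increases with 5-azadC, or among the 3 largest in either direction with C29 or the combination, and all C-type genes and Pcdhb1 were named. Called genes with fewer cytosines, Pcdha5, Pcdhga10 and the genes named for start and exon levels or single cytosines were chosen after their values were seen. Alternatives covered the read minimum, region, strands, weighting, test, size of difference, highest-coverage cytosines, a replicate block and leaving out each library; those for single cytosines, leaving out libraries in the drug-effect test and the comparison with regions at 50% or more were added after the data were seen. Replicate numbers did not pair the libraries.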

Additional observations from a re-analysis of the deposited data

How the results depend on the processing

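With a minimum of 5 reads, 1 member (Pcdha8) was called with C29, with Pcdhb3 at 9.82 points, and 0 members had all 4 libraries with 5-azadC below the others. With 20 reads, 25 members and 166 cytosines were left, and the members called at 10 reads were not among them. Members called were 0 with C29, 0 with 5-azadC and 1 (Pcdhb17) under the combination, and 18, 15 and 32 cytosines were called. In the upstream 1000 bp alone, 7 members had cytosines. Members called were 0, 0 and 1 (Pcdhga9), and 0 members had all 4 libraries with 5-azadC below the others. The alpha values there came from 1 gene, Pcdhac1, and the beta and gamma values from 3 genes each. The 5-azadC difference was -4.88 points in the alpha gene and 14.25 in the gamma genes. The C29 difference was -12.81 in the alpha gene and 5.51 in the beta genes. With both strands summed, the counts of members called were as in the report, but under the combination Pcdhb10 (-20.5 points) gave way to Pcdhgc4. With equal weight for cytosines, the alpha 5-azadC difference was -1.89 and 0 members had all 4 libraries with 5-azadC below. The overdispersion-corrected F test called 0, 0 and 0 members, and a minimum of 10 points called 13, 10 and 13. The share of all coding regions or of all cytosines called was not counted in any of these settings. The causes of these shifts were not tested, apart from the fewer cytosines that a higher read minimum or the upstream stretch leaves.

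Leaving out each library in turn changed the number of members called in each comparison. It gave 1 to 3 members with all 4 libraries with 5-azadC below the others, and 0 to 1 for C29. The shares of all coding regions were not counted with a library left out. The 5-azadC difference ranged from -0.28 to 4.93 points in the alpha, -7.81 to -4.69 in the beta and -0.88 to 1.52 in the gamma cluster, and the C29 difference from -3.27 to 2.96, -0.77 to 3.99 and -1.60 to 1.44. Called cytosines ranged from 67 to 88 with C29, 70 to 82 with 5-azadC and 64 to 100 under the combination. Pcdhga5 under the combination turned to -11.0 points without C29+5-azadC replicate 1, and its highest value was 41.2.

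With the replicate block, 2, 1 and 3 members and 59, 50 and 71 cytosines were called, and 0 members passed for either drug. Deviations of same-numbered libraries correlated at -0.05 to 0.03 between groups over 3643 regions, so the numbers gave no sign of pairing. The effect of either drug on single regions was found in 0 members in every alternative tried, limma included. Reads per gene limit the 12 members with under 5 cytosines, whose intervals had half-widths of up to 15.9 points, and the upstream stretch was read in few members.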
